A study of Mus musculus with 18 samples.

Results

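The 9 genes described here encode membrane and secreted proteins through which tumour cells act on immune cells. They were taken as the rows of both deposited count tables whose symbol was Cd274, Pdcd1lg2, Cd80, Cd276, Cd47, Pvr, Lgals9, Entpd1 or Nt5e, which is 9 of the 24333 symbols shared by the tables. The libraries are poly(A) RNA-seq of 168FARN and 67NR, mouse mammary tumour lines used as models of triple-negative breast cancer that do not metastasize, each as WT, Kmt2c KO and Kmt2d KO cells. KMT2C and KMT2D are histone methyltransferases that place H3K4 monomethylation at enhancers. There were 3 replicates in each of the 6 groups and 18 libraries in all. The KO cells were sorted pools rather than clones, made by transient transfection of a pool of 3 guide vectors carrying mCherry together with a Cas9 and GFP plasmid. Both Kmt2c KO pools and the 67NR Kmt2d KO pool kept unedited copies of the target, most of all 67NR Kmt2c KO, so a level is that of a mixed pool. The WT columns of 168FARN are headed as a guide control and those of 67NR as WT, so the reference cells of the 2 lines may have been handled differently. Replicates were later passages of the same pool, so p-values measure the spread between passages and not between independently made knockouts. All libraries were made from cells grown in culture. The comparisons ask how targeting either methyltransferase moves genes with which tumour cells meet immune cells, and whether the lines respond alike.

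CD274 (PD-L1) and PDCD1LG2 (PD-L2) bind PD-1 on T cells and dampen their response, whereas CD80, a fellow member of the B7 family, gives T cells costimulation through CD28 and inhibition through CTLA-4. CD276 (B7-H3) is a B7 family protein that is often raised in carcinomas. CD47 binds SIRPα on macrophages as a signal against phagocytosis, PVR (CD155) is bound by TIGIT, CD96 and CD226 on T and NK cells, and galectin-9 (Lgals9) binds TIM-3, the product of Havcr2. Extracellular ATP is cut to AMP by CD39 (Entpd1), AMP is cut to adenosine by CD73 (Nt5e), and adenosine acts on T cells and other cells through its receptors.

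In 67NR, both knockouts had more Cd80 and Pvr RNA and less Cd276 RNA than WT, and the Kmt2c knockout also had less Nt5e and Cd47. Cd80 rose 3.98 and 3.12 on the log2 scale in Kmt2c KO and Kmt2d KO, and Cd276 fell by 2.23 and 1.34 on that scale. In 168FARN no gene of the set passed the test in the fit of all 9 libraries without a replicate block. That fit called 0.188% of all genes in Kmt2c KO and 0.155% in Kmt2d KO, against 34.2% and 22.8% in the 67NR fit. With replicate number as a block, Nt5e was higher in both 168FARN knockouts, the direction opposite to that in 67NR. Pdcd1lg2 had no count in any library.

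The bases just before the start site are shown for Cd274, Nt5e and Cd80, which stand for a gene called in 67NR Kmt2d KO with the replicate block and not without it, a gene that fell in 67NR and a gene that rose there. The sequences are those given by RefSeq (GRCm38.p6), each found once and without mismatch in mm9. Capitals mark matches on either strand to 5 motifs: GAAA, any 2 bases and GAAA for IRF factors, TTCNNNGAA for STAT factors, TGANTCA for AP-1, GGGCGG for Sp1 and TATAAA for the TATA box.
Cd274, chr19:29441678-29441927, plus strand: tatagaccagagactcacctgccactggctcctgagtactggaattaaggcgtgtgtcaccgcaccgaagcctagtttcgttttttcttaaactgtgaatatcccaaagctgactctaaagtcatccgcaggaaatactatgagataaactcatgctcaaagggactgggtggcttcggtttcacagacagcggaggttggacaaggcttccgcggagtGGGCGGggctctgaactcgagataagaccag
Nt5e, chr9:88222197-88222446, plus strand: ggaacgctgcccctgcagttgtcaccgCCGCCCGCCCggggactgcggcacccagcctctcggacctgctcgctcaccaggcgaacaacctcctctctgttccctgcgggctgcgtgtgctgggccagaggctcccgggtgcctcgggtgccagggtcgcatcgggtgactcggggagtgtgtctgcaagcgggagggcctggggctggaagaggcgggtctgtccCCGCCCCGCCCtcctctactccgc
Cd80, chr16:38458763-38459012, plus strand: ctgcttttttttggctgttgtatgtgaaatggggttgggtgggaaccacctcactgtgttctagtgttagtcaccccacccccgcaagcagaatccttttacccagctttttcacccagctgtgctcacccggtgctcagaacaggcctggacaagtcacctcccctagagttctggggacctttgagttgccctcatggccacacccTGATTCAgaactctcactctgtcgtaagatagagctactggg
Cd274 held 1 GGGCGG, beginning 31 bases before the start. Nt5e held 4 matches to GGGCGG, counted on both strands, in a stretch with a GC content of 72%. Cd80 held 1 TGANTCA, beginning 42 bases before the start, and no GGGCGG. Among the 32851 promoter windows of 250 bases in the same table, 32.7% held GGGCGG, 6.75% TGANTCA, 2.98% the IRF motif, 7.02% TTCNNNGAA and 12.4% TATAAA, and the median GC content was 52.4%. Of the other genes with an entry, Cd276 held 3 matches to GGGCGG, each Cd47 window 2, and Lgals9 1 match to the IRF motif. These are matches of letters only.

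Total counts per library ranged from 14359760 to 43427382 in 168FARN and from 40951775 to 79251530 in 67NR. Levels are given as CPM, counts set against the size of the library and scaled with TMM factors over all 18 libraries, for replicates 1, 2 and 3 in that order. A gene was called at an edgeR quasi-likelihood adjusted p under 0.05 over all genes tested, and fold changes are on the log2 scale. Kmt2c mRNA was 98.5, 91.8 and 48.0 CPM in 168FARN Kmt2c KO against 117, 108 and 45.5 CPM in WT, overlapping groups with a difference of -0.18 ± 0.49 (SE, edgeR adjusted p = 1.00), and it rose in 67NR Kmt2c KO by 0.63 ± 0.14 (SE, edgeR adjusted p = 0.00669) and in 67NR Kmt2d KO by 0.80 ± 0.14 (SE, edgeR adjusted p = 0.00314). Kmt2d mRNA differed from WT by 0.71 ± 0.36 (SE, edgeR adjusted p = 1.00) in 168FARN Kmt2d KO, a rise of 0.66 that passed with the block (edgeR adjusted p = 0.00622), and by 0.22 ± 0.23 (SE, edgeR adjusted p = 0.563) in 67NR Kmt2d KO. The guides act on exon 1 and small changes there need not alter the amount of mRNA, so these levels do not check the labels. In 67NR Kmt2d KO replicate 3, the ribosomal precursor Rn45s took 28.8% of counts, against 0.46% to 4.97% in the other libraries. Of 16 immune markers, 2 or 3 exceeded 1 CPM in each group, with Cd68 and Cd74 the most abundant. Cd3e, Cd8a and Nkg7 had no count in any 168FARN library, and Ptprc (CD45) stayed at or below 0.0502 CPM in every group mean. In bulk RNA, fewer cells with a transcript and less of it per cell cannot be told apart.

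The replicate 3 libraries stood apart from replicates 1 and 2 in both lines, and several of the genes followed that split. Cd274 was lowest in replicate 3 of every group, and so were Pvr, Nt5e and, except in 67NR WT, Cd276. The libraries showed this split but no clear pairing of replicates 1 and 2 by number. The fit with replicate number as a block is given wherever it changes a call.

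**Figure D1:**
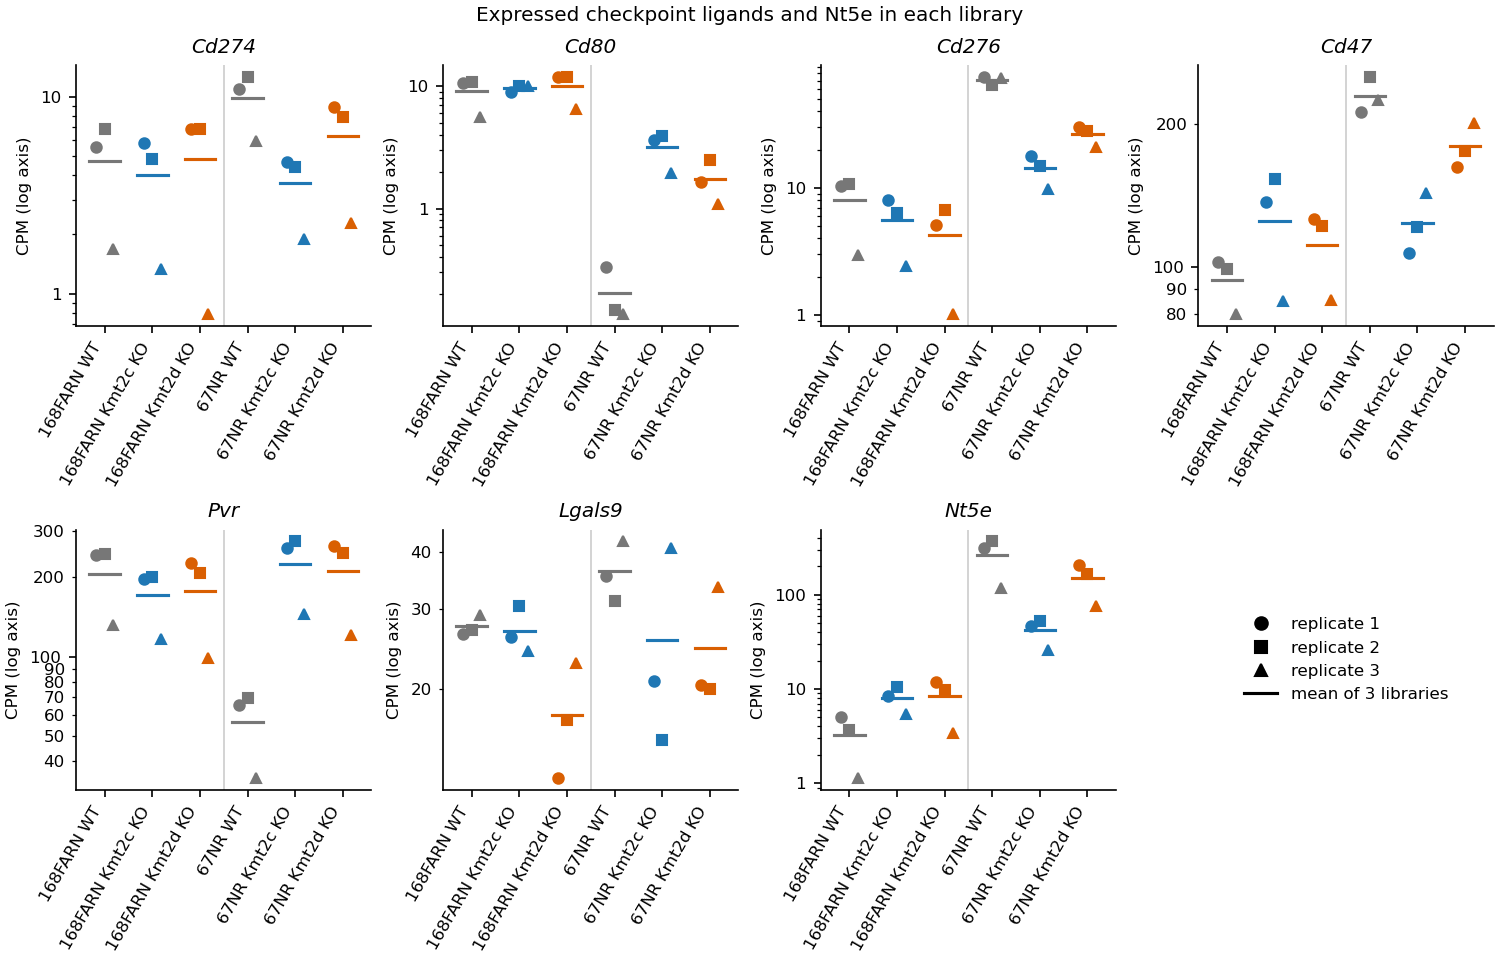
TMM-scaled CPM of the 7 genes above the count filter in each library, on log axes that differ between panels. Markers give the replicate and bars the mean of 3 libraries. All 67NR knockout libraries of Cd80 lie between 1.08 and 3.90 CPM, above the 3 WT libraries at 0.138 to 0.331 CPM.

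Cd274 lies on chromosome 19 of mm9 (29441945 to 29462585, plus strand), with Pdcd1lg2 beginning 22.824 kb downstream. Jak2 ends 54.375 kb upstream, with other genes between. Its level was 5.54, 6.88 and 1.68 CPM in 168FARN WT cells, 5.79, 4.81 and 1.34 in the Kmt2c KO pool and 6.88, 6.87 and 0.791 in the Kmt2d KO pool. Those 3 groups overlapped, with replicate 3 lowest in each. In 67NR it was 11.0, 12.5 and 5.93 CPM in WT cells, 4.67, 4.42 and 1.90 in the Kmt2c KO pool and 8.86, 7.84 and 2.28 in the Kmt2d KO pool. Every 67NR Kmt2c KO library was below every WT library, whereas Kmt2d KO overlapped WT. Cd274 differed from WT by -1.33 ± 0.54 (SE), edgeR adjusted p = 0.0859 in 67NR Kmt2c KO and by -0.55 ± 0.53 (SE), edgeR adjusted p = 0.517 in Kmt2d KO, and neither passed. With the replicate block both passed, at -1.38 ± 0.22 (SE), edgeR adjusted p = 3.42e-04 and -0.68 ± 0.22 (SE), edgeR adjusted p = 0.0276. DESeq2 also called the Kmt2c KO difference, at an adjusted p of 0.0363. Without replicate 3 the differences were -1.29 and -0.42.

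Pdcd1lg2 (chromosome 19, 29485409 to 29545647, plus strand) had 0 counts in all 18 libraries. A count of 0 over a group allows up to 0.0153 CPM in 67NR WT and up to 0.0474 CPM in 168FARN Kmt2d KO, taking 3 counts over the group as the limit. Such limits cover counting error only.

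Cd80 (chromosome 16, 38459013 to 38495821, plus strand) was the gene of the set that differed most between the WT lines in the direction of 168FARN. It was 10.7, 10.9 and 5.66 CPM in 168FARN WT and 0.331, 0.147 and 0.138 CPM in 67NR WT, and the groups did not overlap. The 67NR pools had 3.64, 3.90 and 1.95 CPM (Kmt2c KO) and 1.66, 2.48 and 1.08 CPM (Kmt2d KO). Every library of either knockout exceeded every 67NR WT library, and every one stayed below every 168FARN library. The change from WT was 3.98 ± 0.54 (SE), edgeR adjusted p = 5.13e-04 in Kmt2c KO and 3.12 ± 0.53 (SE), edgeR adjusted p = 0.00284 in Kmt2d KO. The 67NR WT level rested on 28, 10 and 6 counts. In 168FARN the knockouts had 8.91, 9.96 and 10.1 CPM and 11.9, 11.8 and 6.56 CPM, overlapping WT, with differences of 0.092 ± 0.32 (SE) for Kmt2c KO and 0.17 ± 0.32 (SE) for Kmt2d KO that did not pass.

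Cd276 (chromosome 9, 58372107 to 58402939, minus strand) fell in both 67NR knockout pools. It was 74.7, 64.9 and 73.2 CPM in WT cells, 17.9, 15.0 and 9.86 in the Kmt2c KO pool and 30.0, 28.3 and 21.1 in the Kmt2d KO pool. The groups did not overlap, and the order was WT, Kmt2d KO and Kmt2c KO. The change was -2.23 ± 0.24 (SE), edgeR adjusted p = 1.41e-04 in Kmt2c KO and -1.34 ± 0.24 (SE), edgeR adjusted p = 0.00364 in Kmt2d KO. The knockouts differed from each other by -0.89 ± 0.24 (SE), edgeR adjusted p = 0.177, which did not pass. That difference passed with the replicate block (-0.90 ± 0.17 (SE), edgeR adjusted p = 0.00977) and by DESeq2 (adjusted p = 0.0267). In 168FARN the level was 10.3, 10.8 and 2.93 CPM in WT cells, 8.01, 6.33 and 2.43 in the Kmt2c KO pool and 5.08, 6.73 and 1.02 in the Kmt2d KO pool. Those groups overlapped, and among 168FARN libraries only WT replicates 1 and 2 exceeded the lowest 67NR library, a Kmt2c KO. The Kmt2d KO difference of -0.89 ± 0.76 (SE) did not pass without the block, and with it was -0.99 ± 0.22 (SE), edgeR adjusted p = 0.0213. Cd276 overlaps the gene Gm10657 on the opposite strand, and how the counting treated strand is not given in the sources used here, so reads of the 2 genes may be mixed.

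Cd47 (chromosome 16, 49855731 to 49915123, plus strand) fell in 67NR Kmt2c KO. It overlaps a pseudogene model on its own strand. Its level was 212, 251 and 225 CPM in 67NR WT cells, 107, 121 and 143 in the Kmt2c KO pool and 162, 175 and 201 in the Kmt2d KO pool. No library of either knockout reached the WT range. The change was -0.80 ± 0.15 (SE), edgeR adjusted p = 0.00351 in Kmt2c KO. In Kmt2d KO it was -0.27 ± 0.15 (SE), edgeR adjusted p = 0.244, and did not pass. Without replicate 3 the Kmt2d KO change was -0.38 (edgeR adjusted p = 0.0138) and passed, where 51.2% of all genes did. The difference between the knockouts, -0.53 ± 0.15 (SE), edgeR adjusted p = 0.222, passed with the block (-0.53 ± 0.12 (SE), edgeR adjusted p = 0.0212) and without replicate 3 (-0.56). In 168FARN the levels were 103, 99.1 and 79.9 CPM in WT cells, 137, 153 and 84.9 in the Kmt2c KO pool and 127, 122 and 85.6 in the Kmt2d KO pool, with replicate 3 lowest in each. The differences from WT were 0.41 ± 0.26 (SE) and 0.26 ± 0.26 (SE), neither of which passed with or without the block. Without replicate 3 both passed, at 0.54 and 0.34.

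Pvr (chromosome 7, 20488927 to 20506509, minus strand) rose in 67NR from 65.3, 69.4 and 34.5 CPM in WT cells to 259, 274 and 145 in the Kmt2c KO pool and 264, 248 and 121 in the Kmt2d KO pool. All knockout libraries were above all WT libraries. The change was 2.09 ± 0.39 (SE), edgeR adjusted p = 0.00320 in Kmt2c KO and 1.98 ± 0.39 (SE), edgeR adjusted p = 0.00646 in Kmt2d KO. In 168FARN it was 243, 245 and 131 CPM in WT cells, 197, 201 and 116 in the Kmt2c KO pool and 228, 207 and 98.3 in the Kmt2d KO pool, and the groups overlapped. The 67NR knockout levels lay within or near the 168FARN range. Pvr overlaps Gm16184 and Gm16251 on the opposite strand, with the same limit on strand as Cd276.

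Lgals9 (chromosome 11, 78776476 to 78798448, minus strand) was 35.5, 31.2 and 42.3 CPM in 67NR WT cells, 20.8, 15.4 and 40.8 in the Kmt2c KO pool and 20.4, 20.0 and 33.5 in the Kmt2d KO pool. Replicate 3 was the highest library of each 67NR group, and the knockouts overlapped WT through it. The differences were -0.42 ± 0.35 (SE), edgeR adjusted p = 0.401 and -0.49 ± 0.35 (SE), edgeR adjusted p = 0.374. With the block they were -0.53 ± 0.18 (SE), edgeR adjusted p = 0.0261 and -0.52 ± 0.17 (SE), edgeR adjusted p = 0.0323, and without 67NR Kmt2c KO replicate 3 alone the Kmt2c KO difference was -0.92 (edgeR adjusted p = 0.0403). In 168FARN the level was 26.4, 27.0 and 29.1 CPM in WT cells, 26.0, 30.4 and 24.2 in the Kmt2c KO pool and 12.7, 17.1 and 22.8 in the Kmt2d KO pool. All Kmt2d KO libraries were below all WT libraries. That difference was -0.64 ± 0.22 (SE), edgeR adjusted p = 0.678, and -0.65 ± 0.16 (SE), edgeR adjusted p = 0.0346 with the block. Kmt2c KO exceeded Kmt2d KO by 0.62 ± 0.16 (SE), edgeR adjusted p = 0.0430 with the block, and 0.60 ± 0.22 (SE), edgeR adjusted p = 0.789 without it.

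Entpd1 (chromosome 19, 40686856 to 40816092, plus strand) was below the count filter in both lines. It had no more than 12 counts in a library and no more than 0.286 CPM. In 67NR it had 0 counts in the 3 WT libraries, 22 in the 3 Kmt2c KO libraries and 11 in the 3 Kmt2d KO libraries. Set against an upper limit of 3 counts over the WT group, the observed counts were 7.79-fold and 4.85-fold higher. The counting error of the knockout counts was left out, so these ratios are not lower bounds, and no test was run. Replicate 3 held 12 of the 22 and 6 of the 11 counts, and 67NR Kmt2d KO replicate 2 held 0. Over replicates 1 and 2 the same ratios were 3.58-fold and 2.35-fold, from 10 and 5 knockout counts. All 5 of the latter came from Kmt2d KO replicate 1.

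Nt5e (chromosome 9, 88222447 to 88266927, plus strand), the enzyme that forms adenosine, had the widest range of the genes above the count filter. It was 315, 368 and 117 CPM in 67NR WT cells, 47.1, 52.4 and 26.1 in the Kmt2c KO pool and 208, 168 and 75.8 in the Kmt2d KO pool. Kmt2c KO lay below both other groups without overlap, and Kmt2d KO overlapped WT. The change was -2.58 ± 0.51 (SE), edgeR adjusted p = 0.00412 in Kmt2c KO and -0.74 ± 0.48 (SE), edgeR adjusted p = 0.319 in Kmt2d KO, and with the block the latter was -0.71 ± 0.15 (SE), edgeR adjusted p = 0.00340. The difference between the knockouts was -1.84 ± 0.50 (SE), edgeR adjusted p = 0.184, and passed with the block (-1.78 ± 0.16 (SE), edgeR adjusted p = 2.76e-04) and by DESeq2 (adjusted p = 0.00929). In 168FARN the level was 5.03, 3.64 and 1.14 CPM in WT cells, 8.34, 10.5 and 5.44 in the Kmt2c KO pool and 11.9, 9.80 and 3.39 in the Kmt2d KO pool. Every Kmt2c KO library exceeded every WT library, and Kmt2d KO overlapped WT only through its replicate 3. Those differences were 1.32 ± 0.62 (SE), edgeR adjusted p = 0.905 and 1.38 ± 0.62 (SE), edgeR adjusted p = 0.987, and with the block 1.48 ± 0.25 (SE), edgeR adjusted p = 0.00335 and 1.40 ± 0.25 (SE), edgeR adjusted p = 0.00535. Without replicate 3 they were 1.14 and 1.37, both passing.

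Per kb of exon in the GENCODE mm9 annotation, 67NR WT had 74.4 ± 36.9 CPM per kb (SD, n = 3) of Nt5e, 43.4 ± 3.76 of Cd47, 21.5 ± 1.59 of Cd276, 17.0 ± 2.60 of Lgals9, 10.4 ± 3.53 of Pvr, 2.71 ± 0.954 of Cd274 and 0.0703 ± 0.0373 of Cd80. In 67NR Kmt2c KO the leading genes were instead Pvr at 41.8 ± 13.1 CPM per kb and Cd47 at 23.5 ± 3.43, followed by Lgals9 at 12.0 ± 6.27 and Nt5e at 11.7 ± 3.88. In 67NR Kmt2d KO the order began with Nt5e at 42.0 ± 18.9, Pvr at 39.0 ± 14.5 and Cd47 at 34.0 ± 3.74 CPM per kb, where Nt5e and Pvr differed by less than their SD. Pvr also led in 168FARN WT, at 38.1 ± 12.0 CPM per kb, ahead of Cd47 at 17.8 ± 2.31 and Lgals9 at 12.9 ± 0.655.

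Counted over the set, 7 of the 9 genes passed the count filter in each line. In 67NR Kmt2c KO versus WT, 5 of 7 were called, 2 higher and 3 lower, where 34.2% of the 13665 genes tested were called, and the median over the 7 was -0.80 against -0.017 over all genes. With the block all 7 were called, against a background of 52.5%. In 67NR Kmt2d KO versus WT, 3 were called, 2 higher and 1 lower, at a background of 22.8%, with a median of -0.49 against -0.024 over all genes, and with the block 6 were called at a background of 41.8%. With 7 genes these shares are coarse. The 2 comparisons share the WT libraries. Between the 67NR knockouts, 0 of 7 were called by edgeR, where 0.659% of all genes were called. At an unadjusted p under 0.05 there were 3 of 7, against 10.9% of all genes, DESeq2 called 2, against 3.93%, and the block gave 3, against 6.15%.

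In 168FARN, 0 of 7 were called by edgeR in each of the 3 comparisons, with 12253 genes tested. The share of all genes called was 0.188% in Kmt2c KO versus WT, 0.155% in Kmt2d KO versus WT and 0.171% in Kmt2c KO versus Kmt2d KO. At an unadjusted p under 0.05 there were 0, 1 and 1 of 7, where all genes gave 5.92%, 5.28% and 5.03%. DESeq2 called 0 in each, where it called 2.39%, 2.07% and 1.98% of all genes. With the block the counts were 1 (Nt5e), 3 (Nt5e, Cd276 and Lgals9) and 1 (Lgals9), at backgrounds of 10.7%, 6.64% and 6.63%. Over replicates 1 and 2 alone they were 4 (Nt5e and Cd47 higher, Cd276 and Pvr lower), 4 (Nt5e and Cd47 higher, Cd276 and Lgals9 lower) and 1 (Lgals9), at backgrounds of 29.5%, 21.1% and 17.0%. In 67NR, replicates 1 and 2 gave 7 of 7 in each knockout against WT, at backgrounds of 60.4% (Kmt2c KO) and 51.2% (Kmt2d KO), and 5 of 7 between the knockouts, at 22.1%.

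**Figure D2:**
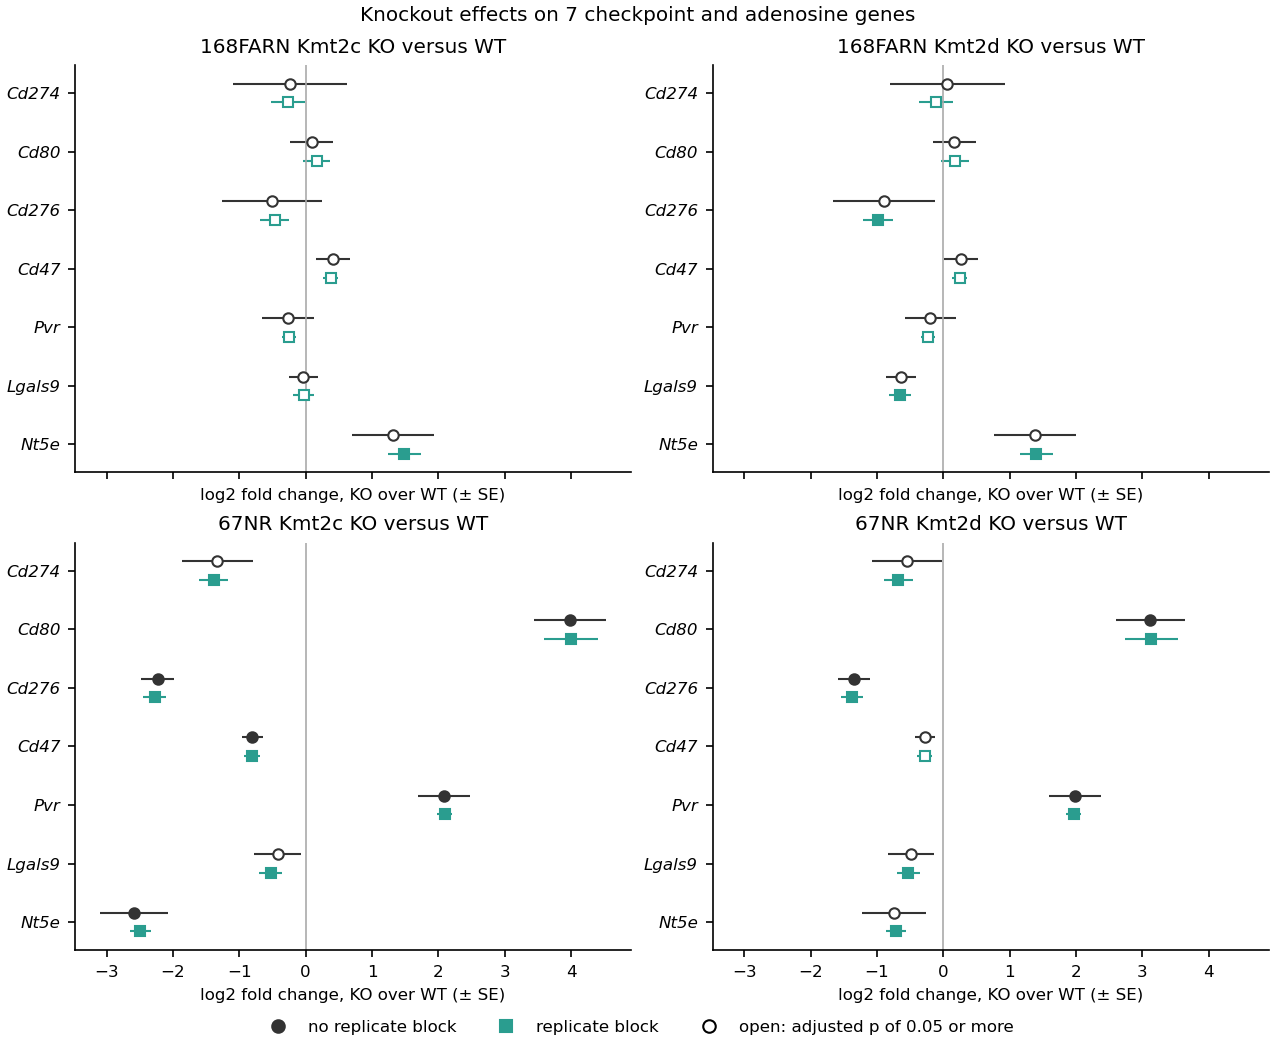
Log2 fold change of each knockout over its WT, with bars of 1 SE, without a replicate block (circles) and with one (squares). Filled markers have an edgeR adjusted p under 0.05. In 67NR, Cd80 and Pvr lie to the right and Cd276 to the left of 0 in both knockouts, and in 168FARN only squares are filled.

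Between the WT cells of the lines, 5 of 7 genes were called, at a background of 36.5% of 13882 genes. 168FARN WT had less Nt5e (-6.36 ± 0.71 (SE), edgeR adjusted p = 3.70e-06), less Cd276 (-3.15 ± 0.60 (SE), edgeR adjusted p = 6.67e-04) and less Cd47 (-1.29 ± 0.22 (SE), edgeR adjusted p = 2.50e-04) than 67NR WT. It had more Cd80 (5.41 ± 0.49 (SE), edgeR adjusted p = 4.67e-07) and more Pvr (1.87 ± 0.41 (SE), edgeR adjusted p = 0.00211). Cd274 was -1.07 ± 0.75 (SE), edgeR adjusted p = 0.295 without the block and -1.26 ± 0.33 (SE), edgeR adjusted p = 0.00583 with it, when 6 were called at a background of 48.2%. The block in this comparison gave same-numbered replicates of both lines a shared term. Across the lines, differently numbered WT libraries correlated at up to 0.400 and same-numbered ones at up to 0.334. The line and any difference in handling between the lines cannot be told apart here.

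The test of the difference between the lines took the 67NR effect minus the 168FARN effect. For Kmt2c KO, 4 of 7 genes were called, at a background of 11.5%. The difference was 3.80 ± 0.60 (SE), edgeR adjusted p = 4.91e-04 for Cd80, 2.27 ± 0.58 (SE), edgeR adjusted p = 0.0166 for Pvr, -3.99 ± 0.83 (SE), edgeR adjusted p = 0.00455 for Nt5e and -1.30 ± 0.31 (SE), edgeR adjusted p = 0.0112 for Cd47. The Cd47 call was lost when 168FARN WT replicate 3 or 168FARN Kmt2c KO replicate 1 or 2 was left out, with an adjusted p up to 0.0720. With the block Cd276 (-1.88 ± 0.27 (SE), edgeR adjusted p = 3.31e-05) and Cd274 (-1.20 ± 0.35 (SE), edgeR adjusted p = 0.0125) joined them, at a background of 36.3%. For Kmt2d KO, 2 of 7 were called, at a background of 7.30%. They were Cd80 (2.88 ± 0.60 (SE), edgeR adjusted p = 0.00654) and Pvr (2.12 ± 0.57 (SE), edgeR adjusted p = 0.0347). The Pvr call was lost in 8 of the 12 fits that left out 1 library, with differences of 1.86 to 2.45 over the 12 and an adjusted p up to 0.0839. With the block Nt5e (-2.17 ± 0.30 (SE), edgeR adjusted p = 4.40e-05) and Cd47 (-0.59 ± 0.17 (SE), edgeR adjusted p = 0.0134) were also called, at a background of 29.0%. Over replicates 1 and 2 alone, 7 genes for Kmt2c KO and 4 for Kmt2d KO were called, at backgrounds of 42.9% and 36.6%.

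**Figure D3:**
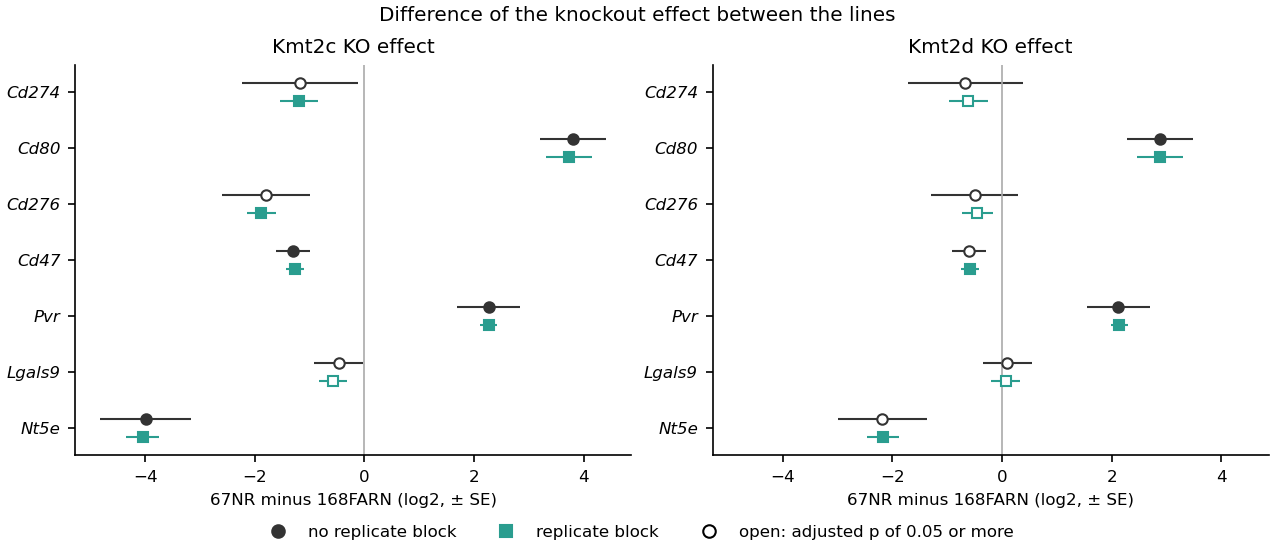
Knockout effect in 67NR minus that in 168FARN on the log2 scale, with bars of 1 SE, for Kmt2c KO (left) and Kmt2d KO (right), without a replicate block (circles) and with one (squares), filled at an edgeR adjusted p under 0.05. Cd80 and Pvr lie to the right of 2 in both panels, and Nt5e is farthest to the left, at -3.99 and -2.19 without the block.

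Markers of cell state moved with the 67NR groups. The 7 epithelial markers summed to 2405 to 3797 CPM in 67NR WT libraries, 493 to 768 in the Kmt2c KO pool and 874 to 1537 in the Kmt2d KO pool, and Krt5 had no count. Of the 6 tested, 4 fell in Kmt2c KO and 3 in Kmt2d KO, where 34.2% and 22.8% of all genes were called in either direction, and 6 and 6 fell with the block, against 52.5% and 41.8%. Among them was Epcam, at -1.89 ± 0.24 (SE) and -1.37 ± 0.23 (SE) without the block. At the same backgrounds without the block, of 7 mesenchymal markers 5 rose and 1 (Fn1) fell in Kmt2c KO, and 4 rose and 1 fell in Kmt2d KO. The summed mesenchymal level ranged from 3792 to 6206 CPM in WT libraries, 5103 to 8155 in the Kmt2c KO pool and 4419 to 7994 in the Kmt2d KO pool. The 16 immune markers summed to 75.6 to 119 CPM in 67NR WT libraries, 28.8 to 91.8 in the Kmt2c KO pool and 38.9 to 127 in the Kmt2d KO pool, with 7, 5 and 5 of them at 0. The 4 endothelial markers summed to at most 2.15 CPM in 67NR. Their part in the 67NR differences was not tested.

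Genes around the set were read from 4 lists of 76 genes in all: other checkpoint ligands, the adenosine pathway, regulators of PD-L1 and of CD47, and the receptors of these ligands. In 67NR, 34 of 61 tested were called in Kmt2c KO, 13 higher and 21 lower, where 34.2% of all genes were called. In Kmt2d KO 27 were called, 9 higher and 18 lower, against 22.8% of all genes. In 168FARN, 0 of 52 were called in either knockout by edgeR, against 0.188% and 0.155% of all genes. At an unadjusted p under 0.05 there were 9 and 4, against 5.92% and 5.28%, DESeq2 called 3 and 1, against 2.39% and 2.07%, and the block gave 12 and 6, against 10.7% and 6.64%.

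Of the 24 other ligands, 19 were tested in 67NR. Against 34.2% of all genes, in Kmt2c KO 3 rose and 7 fell, with a median of -0.996, and against 22.8%, in Kmt2d KO 2 rose and 6 fell, with a median of -0.70. With the block, 12 and 13 were called, against 52.5% and 41.8%. H2-T23, which encodes Qa-1, the ligand of NKG2A on NK cells, fell from 82.7 ± 14.7 CPM (SD, n = 3) in WT cells to 9.74 ± 1.97 in the Kmt2c KO pool and 18.1 ± 2.64 in the Kmt2d KO pool. H2-T23 has close relatives among MHC genes, so its count is uncertain. Icosl, the ICOS ligand, fell, with log2 changes of -3.41 and -1.59. Nectin2, a ligand of TIGIT and CD226 like Pvr, fell, at -1.49 and -1.20, while Pvr rose. Lgals3, which encodes galectin-3, rose by 1.31 and 1.17.

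Of 23 genes of the adenosine pathway, 16 were tested in 67NR, of which 3 rose and 6 fell in Kmt2c KO (34.2% of all genes called) and 1 rose and 5 fell in Kmt2d KO (22.8%). Adora2b, the low-affinity adenosine receptor, rose from 0.919 ± 0.426 CPM (SD, n = 3) in WT cells to 16.5 ± 3.88 in the Kmt2c KO pool and 13.5 ± 2.47 in the Kmt2d KO pool. Alpl, the tissue-nonspecific alkaline phosphatase, fell from 26.6 ± 13.0 CPM to 0.768 ± 0.300 and 0.778 ± 0.196 CPM. Cd38, which cleaves NAD, fell from 44.1 ± 12.5 CPM to 3.29 ± 0.636 and 8.23 ± 0.358 CPM, and Enpp1, which cleaves ATP to AMP, from 40.6 ± 16.8 CPM to 3.09 ± 0.558 and 7.06 ± 1.75 CPM. Ada, which clears adenosine by deamination, rose in Kmt2c KO (1.33 ± 0.44 (SE), edgeR adjusted p = 0.0446) and was 0.96 ± 0.44 (SE), edgeR adjusted p = 0.158 in Kmt2d KO, which passed with the block (1.08 ± 0.23 (SE), edgeR adjusted p = 0.00340).

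All 20 regulators were tested in 67NR, of which 4 rose and 7 fell in Kmt2c KO (34.2% of all genes called) and 4 rose and 6 fell in Kmt2d KO (22.8%). Jak2, the kinase that signals from the interferon-γ receptor, fell from 218 ± 83.8 CPM (SD, n = 3) in WT cells to 87.3 ± 5.71 and 103 ± 7.06 CPM in the Kmt2c KO and Kmt2d KO pools, at edgeR adjusted p = 0.00657 and 0.0253. Irf9, a component of the type I interferon transcription factor complex, fell, with log2 changes of -1.83 and -1.39, as did Ifnar2, a subunit of the type I interferon receptor, at -1.48 and -1.17. Socs3, an inhibitor of cytokine signalling, rose by 1.93 and 1.80, and Spop, a substrate adaptor of a ubiquitin ligase for PD-L1, by 1.07 and 0.81.

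Of 9 receptors and partners, 6 were tested in 67NR, of which 3 rose and 1 fell in Kmt2c KO (34.2% of all genes called) and 2 rose and 1 fell in Kmt2d KO (22.8%). With the block 5 were called in Kmt2d KO, against 41.8%. Sirpa, which encodes the receptor of CD47, rose from 1.40 ± 0.263 CPM (SD, n = 3) in WT cells to 17.4 ± 1.13 in the Kmt2c KO pool and 11.5 ± 1.32 in the Kmt2d KO pool. Thbs1, the secreted CD47 ligand thrombospondin-1, fell from 1261 ± 307 CPM to 91.4 ± 47.9 and 169.8 ± 116 CPM. Havcr2, which encodes TIM-3, the receptor of galectin-9, rose by 1.75 and 1.37. Pdcd1, which encodes PD-1, had no count in any library.

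**Figure D4:**
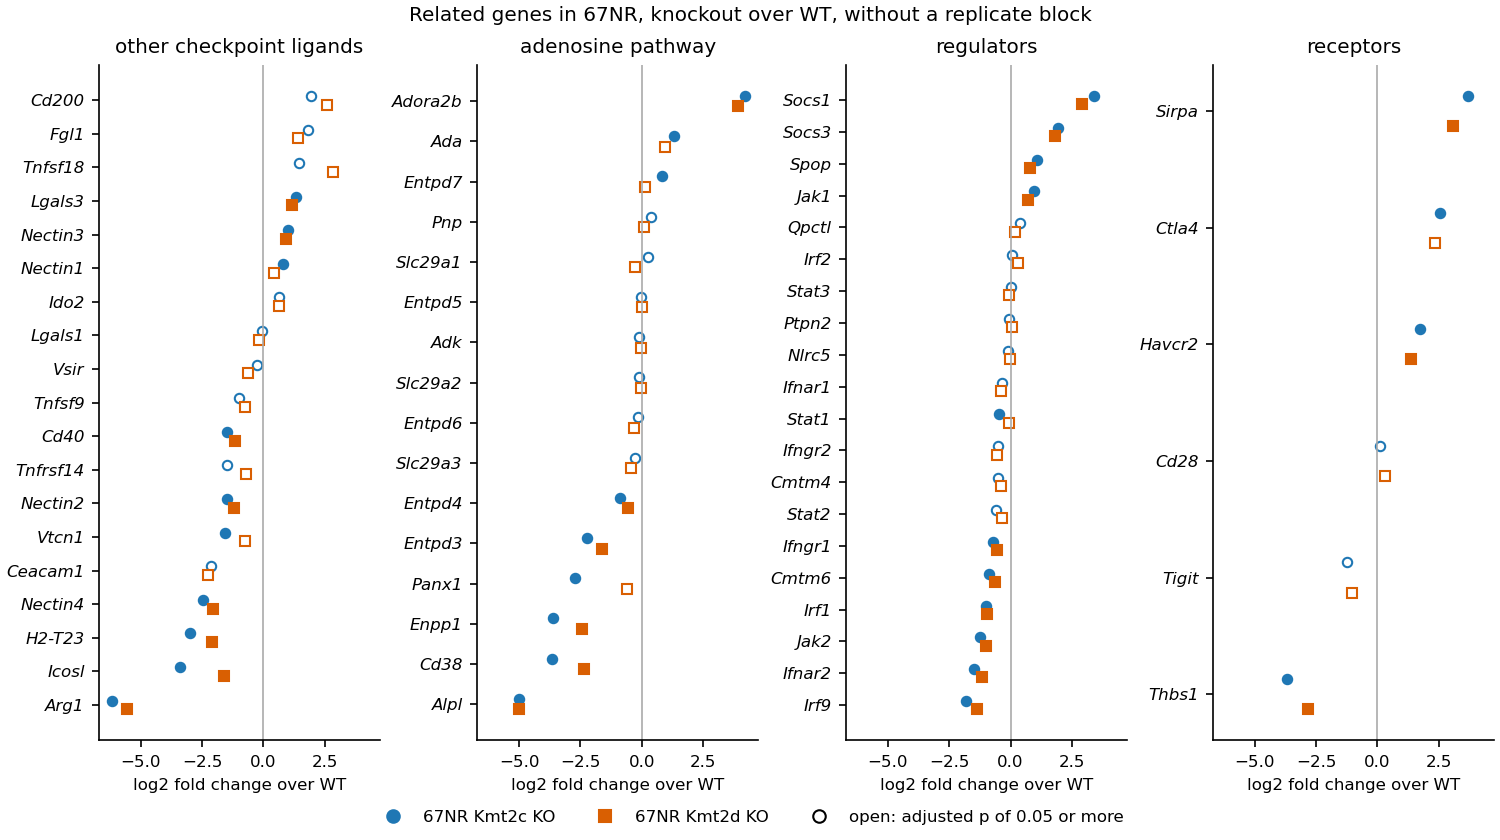
Log2 fold change over WT in 67NR Kmt2c KO (circles) and Kmt2d KO (squares) for the tested genes of 4 lists, filled at an edgeR adjusted p under 0.05. Adora2b lies at 4.22 and 3.92 and Alpl at -5.00 and -5.02, whereas Sirpa and Thbs1 stand at opposite ends of the receptor panel.

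The genes whose levels followed each member most closely were found by Pearson r of log2(CPM + 1) over the 9 libraries of each line, averaged over the lines, among 11987 genes tested in both. These correlations share libraries, and the replicate 3 split enters all of them. They were Tmem206 and Tmem140 for Cd274 (mean r of 0.974 and 0.970), Npc1 and Zfp112 for Pvr (0.981 and 0.975), Slc38a1 and Galnt11 for Cd276 (0.973 and 0.959), and Dst and Jun for Cd80 (0.955 and 0.934). For Cd47 they were Col4a5 and Mtap (0.944 and 0.937), for Nt5e Vldlr (0.916), and for Lgals9 Slc9a3r1 and Eif2ak2 (0.904 and 0.878).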

How the data were processed

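Poly(A) RNA of 18 libraries, 9 for each of the lines 168FARN and 67NR, was measured with strand-specific kits. The authors deposited gene counts, 1 table for each line, made with STAR and the VIPER pipeline on mm9, whereas tool versions, gene annotation and the strand setting of the counting are not given in the sources used here. The deposited counts are raw whole numbers, so gene length and multiple mapping are not corrected. Each table had 24360 rows, of which 27 in the 67NR table held symbols turned into dates. All columns were matched to a sample.

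Each line was fitted by the edgeR quasi-likelihood test (edgeR 4.0.16, R 4.3.3) with robust dispersion, TMM factors and filterByExpr, with the 9 libraries of the line and genotype as the factor. WT of the lines and the difference of effects were fitted over all 18 libraries. The replicate block was shared by the lines in the WT comparison and separate for each line in the difference of effects. Every edgeR adjusted p is by Benjamini-Hochberg over all genes tested. Alternatives were DESeq2 1.42.0, its size factors, no count filter, a replicate block, each library left out, replicates 1 and 2 only, a threshold of adjusted p under 0.1 with a fold of 0.6 on the log2 scale and, chosen after seeing the data, removal of Rn45s. Only the edgeR fit without a block was run on simulated counts, which held no replicate effect. The alternatives were not simulated.

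Replicate numbers come from the labels and were used as the block. Deviations from the group means correlated at 0.751 to 0.930 between same-numbered libraries of 168FARN. In 67NR these correlations were 0.490 to 0.834, and between WT of the lines 0.257 to 0.334. Between differently numbered libraries they ranged from -0.896 to 0.824 in 168FARN, -0.777 to 0.734 in 67NR and -0.362 to 0.400 between WT of the lines. The ranges overlap, so they do not show that samples were paired by number.

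The genes and lists were chosen with earlier results of these data known. All 9 genes were named. From each of the 4 lists, up to 4 genes were named that were called in at least 2 of the 4 knockout comparisons, ranked by number of calls and then by smallest p, with Jak2, Sirpa, Pdcd1 and Ada added. For likeness, the 2 genes with the highest mean r were named, of which 1 is not reported here.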

Additional observations from a re-analysis of the deposited data

Results flagged for a closer look

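For 4 genes the effect of a knockout differed between the lines by a test of the difference itself, the 67NR effect minus that in 168FARN on the log2 scale. Over all genes, that test called 11.5% for Kmt2c KO and 7.30% for Kmt2d KO. For Kmt2c KO the difference was 3.80 for Cd80, where the effect was 3.98 in 67NR and 0.092 in 168FARN. It was 2.27 for Pvr, with effects of 2.09 and -0.26, and -3.99 for Nt5e, with effects of -2.58 and 1.32. Cd47 had a difference of -1.30, with effects of -0.80 in 67NR and 0.41 in 168FARN. The Cd47 call was lost in 3 of the 12 fits that left out 1 library, with an edgeR adjusted p up to 0.0720. For Kmt2d KO the difference was 2.88 for Cd80, with effects of 3.12 and 0.17, and 2.12 for Pvr, with effects of 1.98 and -0.20. This Pvr call was lost in 8 of the 12 fits that left out 1 library, with an edgeR adjusted p up to 0.0839. None of the 168FARN effects of these 4 genes passed the test in the fit of all 9 libraries without the replicate block. That fit called 0.188% of all genes in Kmt2c KO and 0.155% in Kmt2d KO. Over replicates 1 and 2 alone, Nt5e, Cd47 and Pvr passed in 168FARN Kmt2c KO, at 1.14, 0.54 and -0.28.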

How the results depend on the processing

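With the replicate block, the calls of the set in 168FARN went from 0 to 1, 3 and 1. These were for Kmt2c KO and Kmt2d KO against WT, and Kmt2c KO against Kmt2d KO. Over all genes the block raised the share called there from 0.188%, 0.155% and 0.171% to 10.7%, 6.64% and 6.63%. In 67NR Kmt2d KO against WT the set went from 3 to 6, and all genes from 22.8% to 41.8%. Between the 67NR knockouts the set went from 0 to 3, and all genes from 0.659% to 6.15%. In the difference between lines for Kmt2d KO the set went from 2 to 4, and all genes from 7.30% to 29.0%. Beyond the calls given with the results, the block changed no other call of the set. With replicates 1 and 2 only, the counts were 4, 4 and 1 in 168FARN (29.5%, 21.1% and 17.0% of all genes called), 7 in 67NR Kmt2d KO against WT (51.2%), 5 between the 67NR knockouts (22.1%), and 7 and 4 in the differences between lines for Kmt2c KO (42.9%) and Kmt2d KO (36.6%). DESeq2 called 2 between the 67NR knockouts, where it called 3.93% of all genes. Leaving out 1 library gave 1 to 2 calls in the difference between lines for Kmt2d KO. The 3 calls of 67NR Kmt2d KO and the 5 of 67NR Kmt2c KO against WT held in every fit that left out 1 library.

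Directions that turned belonged to differences that did not pass. With the block these were Cd274 in 168FARN Kmt2d KO against WT (-0.11), and Nt5e between the 168FARN knockouts (0.082) and Lgals9 between the 67NR knockouts (-0.00089). With replicates 1 and 2 only they were Cd80 (-0.18) and Lgals9 (0.094) in 168FARN Kmt2c KO against WT, and Lgals9 between the 67NR knockouts (-0.15). Leaving out 1 library gave ranges across 0 in 168FARN Kmt2c KO against WT for Cd274 (-0.62 to 0.19), Cd80 (-0.14 to 0.25) and Lgals9 (-0.13 to 0.043), in 168FARN Kmt2d KO against WT for Cd274 (-0.33 to 0.58), Cd80 (-0.071 to 0.41) and Pvr (-0.43 to 0.11), and between the 168FARN knockouts for Cd274 (-0.80 to 0.12), Cd80 (-0.31 to 0.062), Cd276 (-0.092 to 0.86), Cd47 (-0.015 to 0.37), Pvr (-0.36 to 0.15) and Nt5e (-0.44 to 0.29). The same held between the 67NR knockouts for Pvr (-0.18 to 0.34) and Lgals9 (-0.43 to 0.34), and in the difference between lines for Kmt2d KO for Cd276 (-0.91 to 0.057) and Lgals9 (-0.15 to 0.40). The cause was not tested. Summed over a group, the lowest counts of the set were those of Cd80 in 67NR WT, Entpd1 and Pdcd1lg2.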
